A study of Mus musculus with 96 samples.

Results

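The nuclear genes for oxidative phosphorylation were described through their promoter peaks in chromatin immunoprecipitation sequencing (ChIP-seq) of mouse hippocampal nuclei. A peak was taken where the deposited annotation placed it at a promoter and the gene symbol started with Ndufa, Ndufb, Ndufc, Ndufs, Ndufv, Uqcr, Cox4, Cox5, Cox6, Cox7, Cox8 or Atp5, or was Sdha, Sdhb, Sdhc, Sdhd or Cyc1. This gave 91 of 22815 peaks, or of 17258 promoter peaks, in the 6 tables. Trimethylation of histone H3 lysine 4 (H3K4me3) held all of them, with 74 peaks at 72 genes in NeuN+ nuclei (of 12628 peaks) and 17 peaks at 17 genes in NeuN- nuclei (of 3270). H3K27me3 held 0 of 4132 (NeuN+) and 1698 (NeuN-) peaks, and Suz12 held 0 of 775 and 312. Symbols that start with Ndufaf name assembly factors of complex I rather than subunits, and 5 of the 74 NeuN+ peaks belong to them.

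Besides H3K4me3, the study profiled the repressive mark H3K27me3 and Suz12, which belongs to the Polycomb complex PRC2 that writes it, in hippocampal nuclei sorted by staining for the neuronal protein NeuN. The mice were wild type (WT), Mutyh-/-, Ogg1-/- or lacked both genes (DKO), all on a C57BL/6N background and 6 months old. Both genes encode glycosylases of base excision repair that act on oxidised guanine or its mispairs. Each genotype had 3 replicates of each antibody and fraction, 72 libraries in all, and a replicate was a pool of hippocampi from 5 animals of 1 genotype, so replicates differ as pools and the spread between single animals was not measured.

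Oxidative phosphorylation takes place at the inner mitochondrial membrane. Complex I (NADH dehydrogenase) and complex II (succinate dehydrogenase) pass electrons to ubiquinone, complex III passes them on to cytochrome c, complex IV (cytochrome c oxidase) passes them to oxygen, and complex V (ATP synthase) uses the resulting proton gradient to make ATP. A few core subunits are encoded by mitochondrial DNA, and the nuclear genes described here encode the rest. Neurons depend heavily on this pathway, and its genes are widely expressed and mostly have CpG-rich promoters, where H3K4me3 marks nucleosomes close to active transcription start sites. Some subunits of complex IV have a ubiquitous form and a second form restricted to tissues such as heart, skeletal muscle, lung or testis.

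A pair of promoters from each of Cox8 and Cox7a is printed because the ubiquitous gene had an H3K4me3 peak and the restricted gene had none. Sequences are the RefSeq promoters of the GRCm38.p6 build, from 250 bases before to 50 after the start, written 5′ to 3′ along the gene with CpG sites (C followed by G) in capitals. Cox8a lies at chr19:7217567-7217866, minus strand, and its muscle form Cox8b at chr7:140900397-140900696, minus strand. Cox7a2 lies at chr9:79759804-79760103, minus strand, and its heart and muscle form Cox7a1 at chr7:30183921-30184220, plus strand.
Cox8a: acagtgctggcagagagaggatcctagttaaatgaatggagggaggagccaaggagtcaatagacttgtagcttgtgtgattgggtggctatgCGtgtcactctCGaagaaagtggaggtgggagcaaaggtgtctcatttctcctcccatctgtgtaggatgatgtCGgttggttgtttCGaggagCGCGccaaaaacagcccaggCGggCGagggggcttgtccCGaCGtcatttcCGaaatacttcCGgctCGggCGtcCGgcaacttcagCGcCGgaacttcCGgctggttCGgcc
Cox8b: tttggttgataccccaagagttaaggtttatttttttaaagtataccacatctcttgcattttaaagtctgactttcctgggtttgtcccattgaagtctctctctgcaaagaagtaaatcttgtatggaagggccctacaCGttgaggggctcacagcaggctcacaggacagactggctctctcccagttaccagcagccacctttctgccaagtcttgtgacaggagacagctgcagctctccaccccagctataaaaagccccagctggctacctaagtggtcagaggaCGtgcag
Cox7a2: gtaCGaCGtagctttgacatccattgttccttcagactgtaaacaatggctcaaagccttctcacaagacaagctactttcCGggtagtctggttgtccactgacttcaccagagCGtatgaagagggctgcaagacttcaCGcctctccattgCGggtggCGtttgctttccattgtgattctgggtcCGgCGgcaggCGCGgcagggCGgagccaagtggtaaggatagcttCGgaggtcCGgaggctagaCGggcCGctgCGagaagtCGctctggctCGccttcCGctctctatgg
Cox7a1: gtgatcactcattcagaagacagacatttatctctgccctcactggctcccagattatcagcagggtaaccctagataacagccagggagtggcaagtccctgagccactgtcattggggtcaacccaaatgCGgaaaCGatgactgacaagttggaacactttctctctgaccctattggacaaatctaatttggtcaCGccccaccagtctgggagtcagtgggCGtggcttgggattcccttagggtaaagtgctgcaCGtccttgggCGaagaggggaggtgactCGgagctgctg
The stretches held 19 CpG sites for Cox8a and 2 for Cox8b, and 20 for Cox7a2 and 7 for Cox7a1, against a median of 13 in the promoters of 17491 protein-coding genes and 22 in the 8646 of them with a NeuN+ H3K4me3 promoter peak. Cox8b also held a TATA box, spelled TATAAA, on its own strand. The pairs were chosen for display after the peaks were known, so the counts describe these genes only.

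The next sequence, Cox6a1 at chr5:115348909-115349208, minus strand, is the ubiquitous liver-type subunit VIa of complex IV and had a peak in both fractions. Capitals mark GCGCATGCG, the motif of nuclear respiratory factor 1 (NRF1), which reads on both strands where a further C follows, and CCGGAAG, the motif of ETS factors such as GABP, here on the opposite strand. Ndufab1, at chr7:122101799-122102098, minus strand, is shown with CpG sites in capitals because it carried the 1 call between genotypes described below.
Cox6a1: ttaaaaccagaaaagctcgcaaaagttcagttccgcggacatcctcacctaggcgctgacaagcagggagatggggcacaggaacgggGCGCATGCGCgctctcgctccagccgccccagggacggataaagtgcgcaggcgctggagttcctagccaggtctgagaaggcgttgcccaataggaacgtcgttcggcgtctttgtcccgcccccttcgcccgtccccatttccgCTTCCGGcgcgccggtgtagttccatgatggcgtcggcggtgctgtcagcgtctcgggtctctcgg
Ndufab1: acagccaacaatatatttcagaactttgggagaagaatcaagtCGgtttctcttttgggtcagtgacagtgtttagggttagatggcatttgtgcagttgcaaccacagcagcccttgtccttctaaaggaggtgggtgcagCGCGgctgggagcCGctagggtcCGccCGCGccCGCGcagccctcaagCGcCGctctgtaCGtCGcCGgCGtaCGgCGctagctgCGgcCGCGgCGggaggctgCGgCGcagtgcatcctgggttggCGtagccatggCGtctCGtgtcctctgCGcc
Among 78 genes of the family with a RefSeq promoter, NRF1 letters were in 12.8%, ETS letters in 24.4% and AAGATGGCG, a motif of YY1, in 10.3%, searched on both strands, against 2.61%, 12.9% and 2.14% of all 17491. TATAAA was in 10.3% against 14.8%. Restricted to genes with a NeuN+ peak, the shares for NRF1, ETS and YY1 were 13.6%, 25.4% and 11.9% of 59 family genes against 4.22%, 19.1% and 3.33% of 8646. TATAAA was then in 8.47% against 8.20%. A match describes the letters in the window and nothing about a factor's binding.

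Most genes of the family had an H3K4me3 promoter peak in NeuN+ nuclei and few had one in NeuN- nuclei. Of 97 protein-coding genes that fit the symbols, 72 (74.2%) had a NeuN+ peak and 17 (17.5%) a NeuN- peak, where all 21896 protein-coding genes gave 49.2% and 13.4%. Each of the 17 genes also had a NeuN+ peak. Complex V was covered best, with 16 of 17 genes in NeuN+ nuclei and 8 in NeuN- nuclei. Complex III had 7 of 9 and 4, complex II 3 of 4 and 0, complex I 35 of 47 and 3, and complex IV 11 of 20 and 2. The NeuN- table holds fewer peaks than the NeuN+ table, so a gene without a NeuN- peak is a gene below the authors' calling limit there and not one shown to lack the mark.

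**Figure D1:**
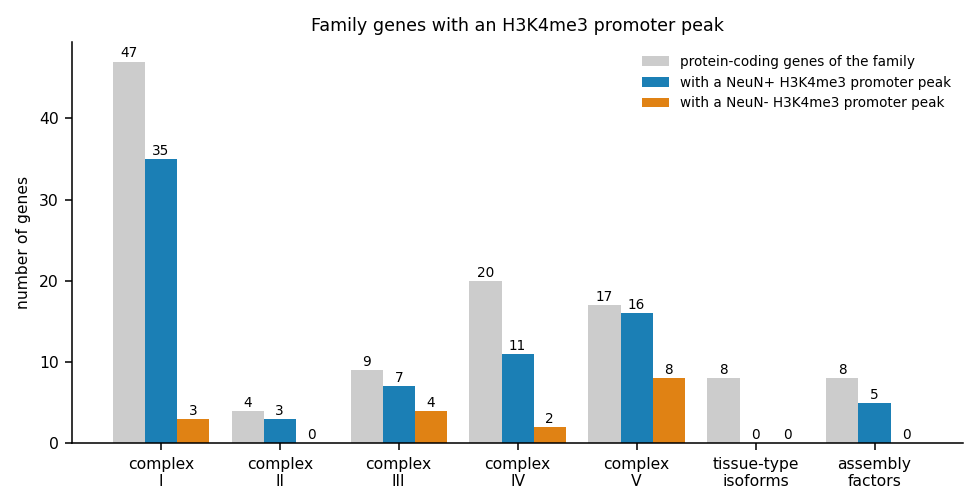
Number of genes of each complex (grey), and how many had an H3K4me3 promoter peak in NeuN+ (blue) or NeuN- nuclei (orange); the tissue-type isoforms and assembly factors are also counted in their complexes. Complex V reaches 16 of 17 in NeuN+ nuclei, and the 8 tissue-type isoforms have 0 peaks in both.

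Genes without a NeuN+ peak were mainly tissue-type isoforms and genes next to another start. All 8 tissue-type isoforms lacked one: Cox4i2 of lung, Cox6a2, Cox7a1 and Cox8b of heart and muscle, Cox6b2, Cox7b2 and Cox8c of testis, and Ndufa4l2, a paralogue of Ndufa4. Their nearest NeuN+ H3K4me3 peak was between 2647 and 109342 bp from the start, and the closest, 2647 bp upstream of Ndufa4l2, was annotated as distal intergenic with a WT mean of 10.4 ± 1.44 (SD, n = 3). The ubiquitous counterparts Cox4i1, Cox6a1, Cox6b1, Cox7a2, Cox8a and Ndufa4 had one, and Cox7b, the counterpart of Cox7b2, did not. Leaving out the isoforms, 66 of 78 structural subunits (84.6%) had a peak.

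Another 13 of the 25 genes without a peak of their own had a peak within 1000 bp of a start that the deposited annotation gave to a neighbouring gene. Ndufa11 and Ndufaf5 lay within such a window, assigned to Vmac and Esf1, and so did Ndufaf7, assigned to Cebpz. Sdhd, a membrane anchor of complex II, was 29 bp from a peak assigned to Timm8b, and Atp5h, the only complex V gene without a peak, was 20 bp from one assigned to Kctd2. Uqcrb was 127 bp from a peak assigned to Gm10767, Ndufa7 113 bp from one assigned to Rps28 and Ndufb3 45 bp from one assigned to Hycc2. The count of 72 genes therefore depends on how a peak between 2 starts is assigned. The 3 genes of the family on the X chromosome, Ndufa1, Ndufb11 and Cox7b, had 0 peaks of their own, in a table with 202 peaks on X. Ndufa1 lay 369 bp from a peak of Rnf113a1, Ndufb11 181 bp from one of Rbm10, and Cox7b 3877 bp from the nearest. Of the rest, Ndufb4c was 29496 bp from the nearest peak, and Ndufb1 and Ndufb4b were not matched by name in the GENCODE annotation used for distances, so none was computed for them.

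Shared starts were frequent among the peaks themselves. A protein-coding gene on the opposite strand started within 1000 bp of 21 of the 74 NeuN+ peaks (28.4%), against 11.8% of the other promoter peaks, and within 1000 bp of 5 of the 17 NeuN- peaks (29.4%), against 15.8%. For 8 of the 74 the start of another protein-coding gene, on either strand, fell inside the counting window. Examples were Ndufs1 with Eef1b2 and Atp5j with Gabpa, which encodes the ETS factor GABPA. The mark in such a window cannot be divided between the genes.

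Every counting window was 401 bp wide, so deposited values can be compared between genes within a table. The 74 NeuN+ windows lay over the start in 39 cases and downstream of it in 35, by at most 263 bp, and 0 lay upstream, where 4.44% of all promoter peaks did. The 17 NeuN- windows lay over the start in 12 cases and downstream in 5. The NeuN+ windows had a median GC content of 61.3% and 27 CpG sites, against 67.1% and 35 in the other promoter peaks, and the NeuN- windows 64.1% and 34 against 70.8% and 43. AAGATGGCG was in 7 of the 74 NeuN+ windows (9.46%) against 2.29% of the others, at Ndufb9, Atp5g2, Atp5j, Ndufa2, Atp5a1, Atp5e and Ndufc1. Ndufb9 and Atp5g2 have 2 windows each and only 1 of these held it, for Ndufb9 the one with the start of Gm49356. ETS letters were in 14.9% against 12.3%, TATAAA in 4.05% against 3.15%, and NRF1 letters in 0 of 74 against 1.04%. NeuN+ windows of mitochondrial ribosomal protein genes held AAGATGGCG in 10.2% and ETS letters in 27.1%. Those of cytosolic ribosomal protein genes held them in 2.44% and 19.5%, and NRF1 letters were in 0 of either list. Over the 74 windows the WT level had a Spearman rho of 0.35 with GC content and 0.10 with the number of CpG sites, a description across genes that share libraries.

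Sequencing depth sets how finely these levels can be read. Reads in peaks per H3K4me3 library ranged from 96023 to 548706 in NeuN+ nuclei and from 39320 to 120004 in NeuN- nuclei, where 1 peak alone took 25.4% to 59.3% of them. DKO replicate 1 of the NeuN+ table was the shallowest, and 1 of its reads is worth 2.26 units of the deposited value. A member peak held a median of 24 reads per NeuN+ library (library medians 7 to 49) and 10 per NeuN- library (4 to 16). How duplicate reads were handled is not given in the sources used here, so reads may not be independent molecules. Of 12 neuronal marker genes, 11 had an H3K4me3 promoter peak in NeuN+ nuclei and 0 in NeuN- nuclei. Of 19 markers of astrocytes, oligodendrocytes, microglia and vessels, 2 (Slc1a3 and Mbp) had one in NeuN+ nuclei and 1 (Olig1) in NeuN- nuclei, so the NeuN- libraries lacked neuronal marker peaks but carried little of the glial set either. Mutyh had 0 peaks in the 6 tables. Ogg1 had 1, at H3K4me3 in NeuN+ nuclei, with values of 15.4, 5.85 and 10.8 in WT, 17.9, 6.15 and 13.8 in Ogg1-/- and 0, 14.5 and 5.31 in DKO, and a promoter mark does not check a deletion.

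In NeuN+ nuclei of WT mice, H3K4me3 at these promoters was close to that of promoters in general. The median of the WT means was 25.9 over the 74 peaks (quartiles 20.9 and 30.6), 24.1 over all 11771 promoter peaks, 26.2 over 41 cytosolic ribosomal protein promoters and 24.1 over 59 mitochondrial ribosomal protein promoters. Of the 74, 45 (60.8%) were above the promoter median, 10 were above percentile 90 and 11 below percentile 25. Medians by complex were 25.4 for I, 25.9 for II, 27.9 for III, 25 for IV and 26.4 for V, and 22.2 for the 5 assembly factors. Ordered by WT mean, the lowest peak, Ndufb5, had each WT value below those of the next, Ndufab1. No other peak stood apart from the next by more than their pooled SD, so other neighbours in the order are not distinguished. The coefficient of variation over WT replicates had a median of 25.4% and ranged from 5.48% to 173%.

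**Figure D2:**
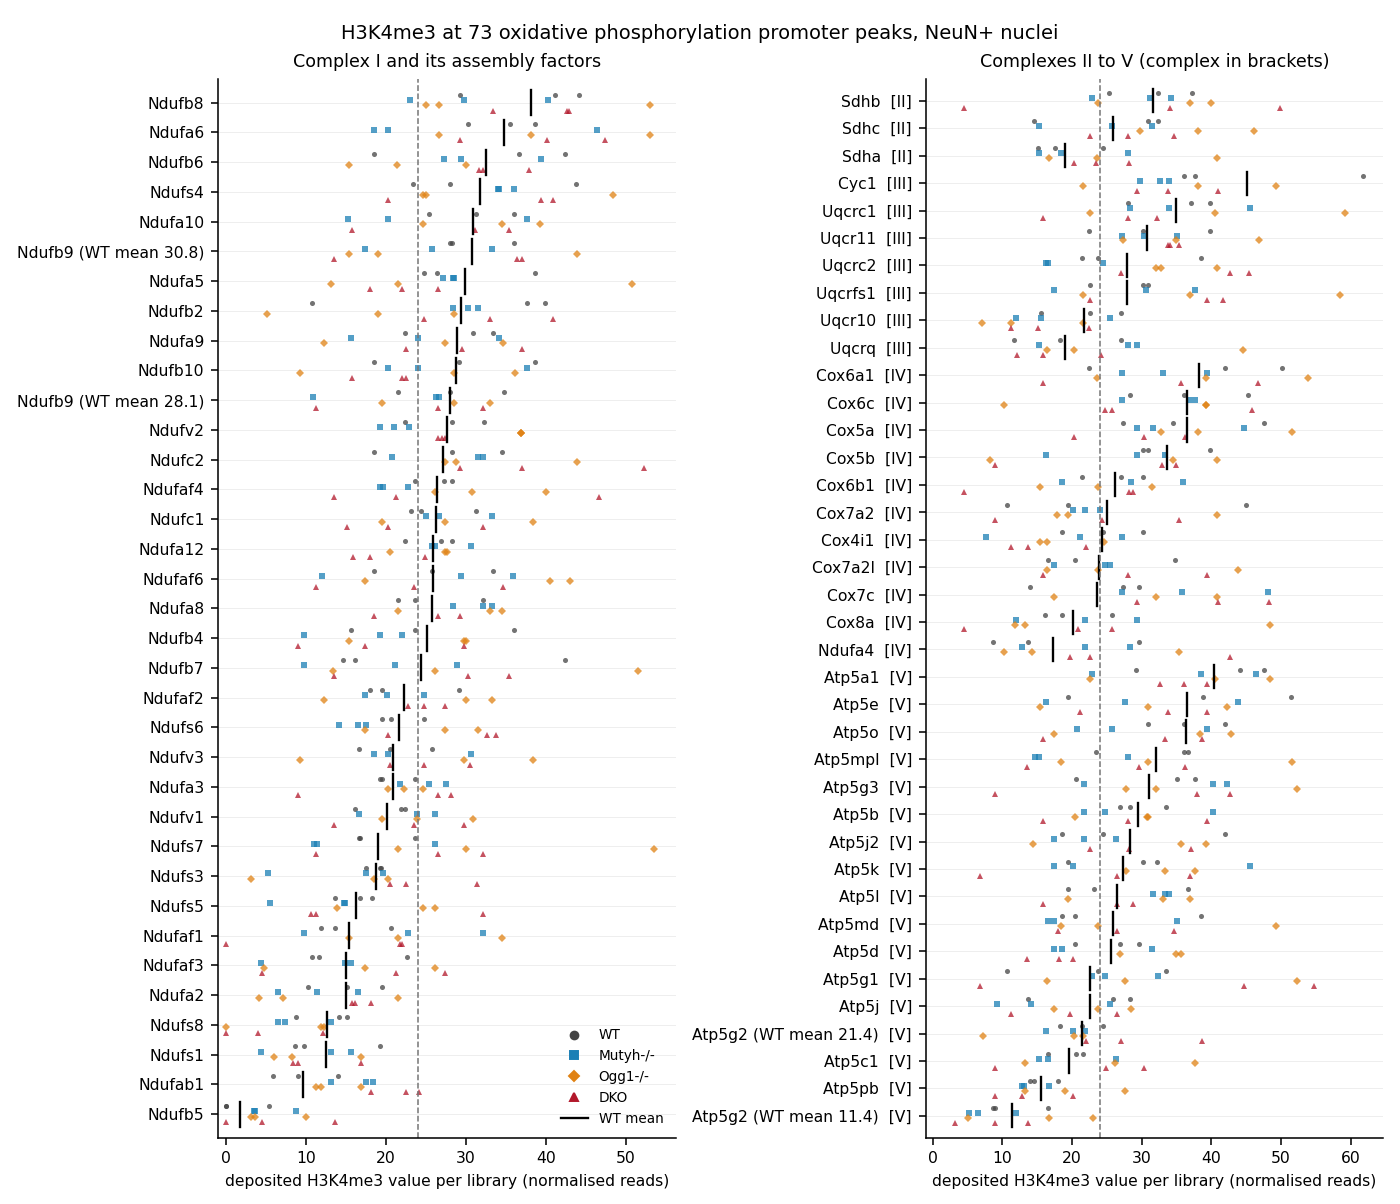
Deposited H3K4me3 value (normalised reads) at 73 of the 74 peaks in NeuN+ nuclei, with 1 point per library for WT (circles), Mutyh-/- (squares), Ogg1-/- (diamonds) and DKO (triangles). Bars are WT means, and the dashed line at 24.1 is the median WT mean of all promoter peaks; the genotypes overlap at nearly every gene, from Ndufb5 at 1.79 to Cyc1 at 45.2.

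The highest members lay at high percentiles of promoter peaks, whose WT means ran from 0 to 148, and the lowest members at low percentiles. Cyc1, the cytochrome c1 subunit that hands electrons from complex III to cytochrome c (chromosome 15, 76343688 to 76344088, build GRCm38), had WT values of 61.7, 36.1 and 37.7, and its mean of 45.2 ± 14.4 (SD, n = 3) was at percentile 99.7 of promoter peaks. Atp5a1, the alpha subunit of the catalytic head of complex V, had 47.6, 29.3 and 44.2, a mean of 40.3 ± 9.74. Cox6a1 had 50.2, 22.4 and 42, a mean of 38.2 ± 14.2. The 3 sets of values overlap one another. At the other end, Ndufb5, a membrane-arm subunit of complex I (chromosome 3, 32736747 to 32737147), had 0, 0 and 5.38 in WT, that is 5 reads in 1 of 3 libraries, and 13.6 in 1 DKO library. Ndufab1 followed at 9.62 ± 4.11, and a peak of Atp5g2 at 11.4 ± 4.49.

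Complex I accepts electrons in a peripheral arm of flavin and iron-sulphur subunits. Among these, Ndufv2, which carries an iron-sulphur cluster, was at 27.7 ± 4.96 (SD, n = 3) in WT. Ndufv1, which binds flavin and NADH, was at 20.2 ± 3.48, and Ndufs1, the largest iron-sulphur subunit, at 12.6 ± 5.86, percentile 10.1. The accessory subunit Ndufa9 was at 28.9 ± 5.73. Levels of core subunits of 1 enzyme thus spanned percentiles 10.1 to 66.1. Ndufb9 was 1 of 2 genes with a pair of peaks, at 30.8 ± 4.55 and 28.1 ± 6.63. The window of the second held the start of Tatdn1, and that of the other held the start of Gm49356.

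Complex II had peaks at Sdhb (31.7 ± 6.00), the iron-sulphur subunit, Sdhc (25.9 ± 9.81), a membrane anchor, and Sdha (19.0 ± 4.85), the flavoprotein. In complex III, Uqcrc1 (35.0 ± 6.21) and Uqcrc2 (27.9 ± 9.31) encode the core proteins and Uqcrfs1 (27.9 ± 4.60) the Rieske iron-sulphur protein. All 4 core-list genes of complex III, Cyc1 included, were above the promoter median of 24.1.

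Complex IV subunits Cox5a (36.5 ± 10.3) and Cox5b (33.7 ± 5.37), which surround the mitochondrially encoded core, were high, and Cox4i1 (24.4 ± 5.81), Cox7a2 (25 ± 17.8), Cox6b1 (26.2 ± 4.40), Cox8a (20.1 ± 4.98) and Ndufa4 (17.3 ± 10.9) were lower. The WT values of Cox7a2 alone ran from 10.7 to 45, so the order within complex IV is loose. In complex V, Atp5o (36.3 ± 5.57), the stalk subunit OSCP, and Atp5b (29.6 ± 3.44), the catalytic beta subunit, exceeded Atp5d (25.7 ± 4.68), the delta subunit, and Atp5c1 (19.6 ± 2.63), the gamma shaft. Atp5g2, 1 of 3 genes for the c-ring subunit, had 2 peaks, at 21.4 ± 3.07 and 11.4 ± 4.49.

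In NeuN- nuclei the 17 peaks were also at the level of promoters in general. Their WT means had a median of 9.27 (range 5.85 to 14.9) against 8.88 over 3055 promoter peaks, and 9 of 17 were above that median. The order from the top was Atp5g3, Cyc1, Ndufb8, Atp5a1, Uqcrfs1, Ndufv2, Atp5c1, Atp5b, Cox7a2l, Ndufa10, Cox6a1, Atp5o, Atp5k, Uqcrq, Atp5pb, Atp5j and Uqcrc2. Atp5g3, another c-ring gene, led through WT replicate 1, with values of 33.2, 7.88 and 3.55. Cyc1 had 19.4, 14.2 and 7.09, and Ndufb8, an accessory subunit of complex I, 18, 14.2 and 5.91. At the low end Uqcrc2 had 4.15, 13.4 and 0, Atp5j, a stalk subunit, 1.38, 8.67 and 9.45, and Atp5pb, the peripheral stalk subunit b, 11.1, 3.94 and 4.73. High and low genes overlap, no neighbours in the order differed beyond their pooled SD, and the median coefficient of variation over WT replicates was 68.5%. Of 204 values 14 were 0, at 11 of the 17 peaks, against 6 of 888 values, at 3 of the 74 peaks, in NeuN+ nuclei.

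**Figure D3:**
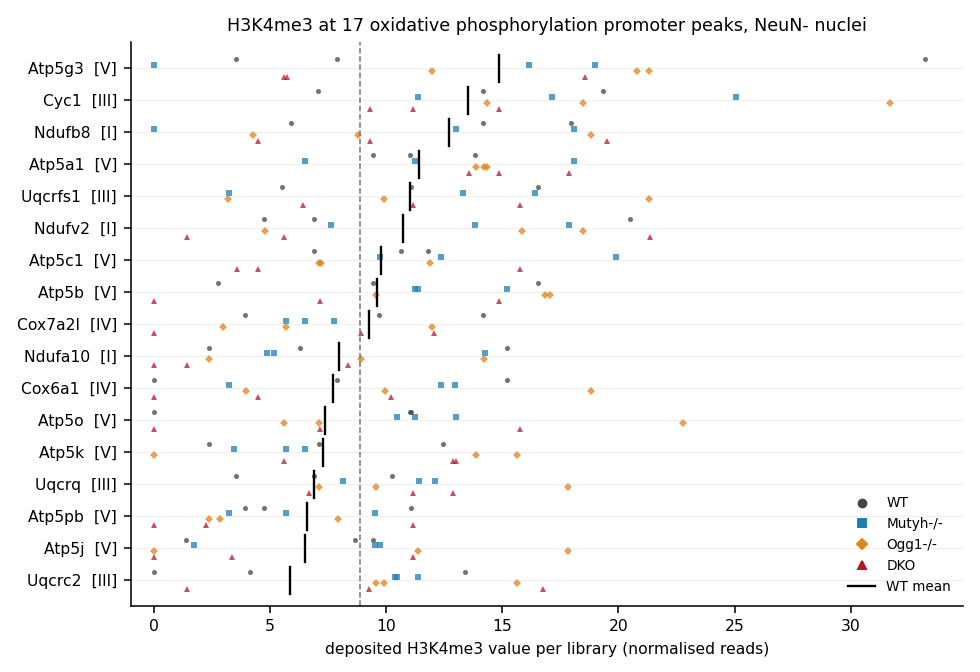
Deposited H3K4me3 value (normalised reads) at the 17 peaks in NeuN- nuclei, 1 point per library, with genotypes as circles (WT), squares (Mutyh-/-), diamonds (Ogg1-/-) and triangles (DKO), bars at WT means and a dashed line at the promoter median of 8.88. Points of all genotypes interleave, and 14 of the 204 values are 0.

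The tables were normalised separately, so fractions were set side by side only by percentile among promoter peaks. Cyc1 was high in both, at percentile 99.7 in NeuN+ and 89.7 in NeuN- nuclei, and so were Atp5a1 (98.1 and 76.1) and Ndufb8 (96.3 and 85.4). Cox6a1 was at 96.3 and 36.8, Atp5o at 93.7 and 32.7 and Uqcrc2 at 67.2 and 17.7. Atp5c1 was at 32.6 and 59.9. Over the 17 genes Spearman's rho between fractions was 0.56, and over all 3000 peaks that overlap one to one it was 0.30, both descriptions across genes. Among the 74 NeuN+ peaks 19 (25.7%) overlapped a NeuN- peak one to one, against 24.6% of promoter peaks, and their median percentile was 67.2, against 57.8 for the other 55. Over all promoter peaks the same split was wider, at 72.6 with and 42.2 without a NeuN- counterpart. The peaks of Ndufa2 and Cox4i1 overlapped NeuN- peaks annotated to Ik and Gm27021.

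No repressive mark was called at these promoters. Within 1000 bp of the 74 NeuN+ and 17 NeuN- peaks there were 0 H3K27me3 and 0 Suz12 peaks of the same fraction, where 2.35% and 1.55% of the other NeuN+ promoter peaks and 1.68% and 0.757% of the other NeuN- promoter peaks had one. For 74 and 17 peaks, a count of 0 is near these shares. Cytosolic and mitochondrial ribosomal protein genes also had 0 promoter peaks of H3K27me3 or Suz12 in both fractions. Genes of the family were annotated to 11 peaks outside promoters. For Ndufb3 this was a region about 27 kb from its start, counted in 5 of the 6 tables, with WT means between 0.330 ± 0.572 (SD, n = 3, Suz12 NeuN+) and 15.0 ± 5.34 (H3K27me3 NeuN+). Atp5g3 was the nearest gene to 4 H3K27me3 peaks at -75330 to -154068 bp from its start, and Ndufs6 to 1 at 18819 bp. Such peaks take the name of the closest gene and are not at its promoter.

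Few of these promoters met the study's definition of a change in the knockouts. A differentially enriched region (DER) needed a log2 fold change of more than 0.5 in size from WT and, before any adjustment, a p below 0.05. Here both came from limma, fitted on log2(value + 1) to all 12 libraries per table at once, and fold changes on that scale understate changes of low peaks. In NeuN+ nuclei 0 of 74 member peaks were DERs for Mutyh-/-, 0 for Ogg1-/- and 1 for DKO, also without the fold limit, where 0.911%, 0.966% and 1.46% of all 12628 peaks were. In NeuN- nuclei 0 of 17 were DERs in each contrast, where 2.94%, 3.36% and 2.29% of 3270 peaks were. The members' counts were near these background shares. The 3 contrasts share the WT libraries. After Benjamini-Hochberg adjustment over all peaks of a table, limma gave 0 members an adjusted p under 0.05 in all 6 contrasts.

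The 1 DER was Ndufab1, which encodes the mitochondrial acyl carrier protein, a subunit of complex I that also serves fatty acid and iron-sulphur cluster synthesis. Its window was at chromosome 7, 122101394 to 122101794, over the start. H3K4me3 there was 9.0, 5.85 and 14 in WT, 13.1, 17.5 and 18.4 in Mutyh-/-, 11.9, 11.3 and 16.9 in Ogg1-/- and 22.6, 24.1 and 18.2 in DKO. All 3 DKO values were above all 3 WT values, while the single knockouts overlapped WT. The DKO change was 1.16 on the log2 scale (SE 0.54, 95% interval 0.06 to 2.25, limma unadjusted p = 0.039, adjusted p = 1.00), on 7, 6 and 13 reads in WT and 10, 30 and 24 in DKO. It stayed under 0.05 under 6 other settings (p between 0.011 and 0.040), and the peak was not in the fit that drops the lowest 25% of peaks. Leaving out 1 library, p was 0.066 without WT replicate 1, 0.13 without WT replicate 2, 0.065, 0.10 and 0.056 without DKO replicates 1, 2 and 3, and 0.026 without WT replicate 3.

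Members with the smallest p in the other contrasts did not pass. For Mutyh-/- in NeuN+ nuclei this was Atp5mpl, a small ATP synthase-associated membrane protein, with 36.0, 23.4 and 36.6 in WT and 15.3, 14.7 and 28.0 in Mutyh-/-, a log2 difference of -0.73 (SE 0.45, limma unadjusted p = 0.11), with ranges that overlap. For Ogg1-/- it was Ndufs7, an iron-sulphur subunit of complex I, with 16.7, 16.6 and 23.7 in WT and 53.6, 21.5 and 30.0 in Ogg1-/-, a difference of 0.77 (SE 0.49, limma unadjusted p = 0.12). One high library, Ogg1-/- replicate 1, set much of that difference, which was 0.42 without it. In NeuN- nuclei Uqcrc2 had 10.5, 10.4 and 11.4 in Mutyh-/- and 9.90, 9.58 and 15.6 in Ogg1-/- against 4.15, 13.4 and 0 in WT, differences of 1.48 and 1.56 (SE 0.92 each, limma unadjusted p = 0.11 and unadjusted p = 0.093). Without WT replicate 2 they were 2.37 and 2.45, with limma unadjusted p = 0.029 and an unadjusted p = 0.024. Without WT replicate 3, the library at 0, they were 0.45 and 0.53 (limma unadjusted p = 0.62 and unadjusted p = 0.56), and with edgeR 0.54 and 0.71. For DKO it was Ndufa10, an accessory subunit of complex I, with 15.2, 6.30 and 2.36 in WT and 8.36, 1.43 and 0 in DKO, a difference of -1.38 (SE 1.05, limma unadjusted p = 0.19), and of -2.24 (limma unadjusted p = 0.049) without DKO replicate 1. It was -0.63 without DKO replicate 3, -0.81 without WT replicate 1 and -0.66 with a pseudocount of 5.

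Complete separation of the 3 and 3 libraries was also rare. In Mutyh-/- NeuN+ nuclei 3 members were below WT in every library, Ndufs6, Cyc1 and the assembly factor gene Ndufaf4, where 5.77% of all peaks separated either way. Cyc1 was at 32.7, 34.0 and 29.8 against 61.7, 36.1 and 37.7, and Ndufs6, an iron-sulphur arm subunit, at 14.2, 16.5 and 17.5 against 20.6, 19.5 and 24.8. In Ogg1-/- 1 member separated, Ndufv2 at 36.9 in each library against 28.3, 22.4 and 32.3 (3.68% of all peaks). In DKO 3 did, with Ndufs3 and Ndufab1 above WT and Atp5d below it at 13.5, 20.1 and 18.2 against 29.6, 20.5 and 26.9 (5.02%). In NeuN- nuclei the numbers were 0 of 17 for Mutyh-/- (9.24% of all peaks), 1 for Ogg1-/- (Atp5a1, 8.29%) and 0 for DKO (5.02%). Other than Ndufab1, limma p exceeded 0.05 for each of these, and in both fractions the members' shares were at or below those of all peaks.

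The number of members called rose with other tools in NeuN+ nuclei, as it did for all peaks. With TMM factors 2, 3 and 3 members were DERs for Mutyh-/-, Ogg1-/- and DKO, where 3.75%, 3.82% and 5.54% of all peaks were. With edgeR on recovered reads there were 2, 2 and 4 (4.01%, 3.97% and 3.88%), and with DESeq2 2, 2 and 2 (2.99%, 2.99% and 2.81%). Beside Ndufab1, these calls were Atp5mpl (lower) and Cox7c (higher) for Mutyh-/-, Ndufb6, Ndufb2 and, with TMM, Uqcr10 (lower) for Ogg1-/-, and Cox7c, Ndufc2 and Atp5g1 (higher) for DKO. Cox7c, a small subunit of complex IV, had 29.6, 27.3 and 14 in WT, 27.2, 35.8 and 48.2 in Mutyh-/- and 29.3, 48.3 and 40.9 in DKO, with overlap in both. In NeuN- nuclei the 3 tools called 0 of 17 in each contrast. None of the 3 gave a member an adjusted p under 0.05.

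In NeuN+ nuclei the median log2 difference from WT was -0.10 for Mutyh-/-, 0.10 for Ogg1-/- and -0.11 for DKO, against -0.07, 0.08 and -0.02 over all peaks. Of the 74 members 25, 47 and 29 were above 0 (33.8%, 63.5% and 39.2%), against 42.3%, 58.7% and 47.8% of all peaks. Without the shallow DKO replicate 1 both DKO medians were 0.21, so the sign of the member median rested on that library. The DKO median of all peaks also turned positive without WT replicate 1 (0.09) and without WT replicate 3 (0.04). In NeuN- nuclei the medians were 0.16, 0.30 and -0.26 against 0.22, 0.25 and 0.05, so for DKO the member median lay below that of all peaks. There 10, 10 and 5 of 17 members were above 0 (58.8%, 58.8% and 29.4%), against 61.5%, 64.3% and 52.8% of all peaks. With TMM factors the medians of all NeuN- peaks moved to 0.01, 0.07 and 0.02 and those of the members to -0.03, 0.11 and -0.29. With edgeR the member medians were -0.15, 0.08 and -0.58 (all peaks 0.02, 0.03 and 0.01), and with DESeq2 -0.19, 0.04 and -0.60 (all peaks -0.02, 0.00 and 0.00). The sign for Mutyh-/- thus changed with the tool, and the DKO median stayed negative with each of them. Leaving out 1 library, the DKO median from limma was 0.10 without WT replicate 1, 0.22 without DKO replicate 2 and 0.0052 without DKO replicate 3, and -0.88 without DKO replicate 1. Library medians in a table had an SD of 0.43 (NeuN+) and 0.56 (NeuN-) on the log2 scale, larger than each member median from limma.

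**Figure D4:**
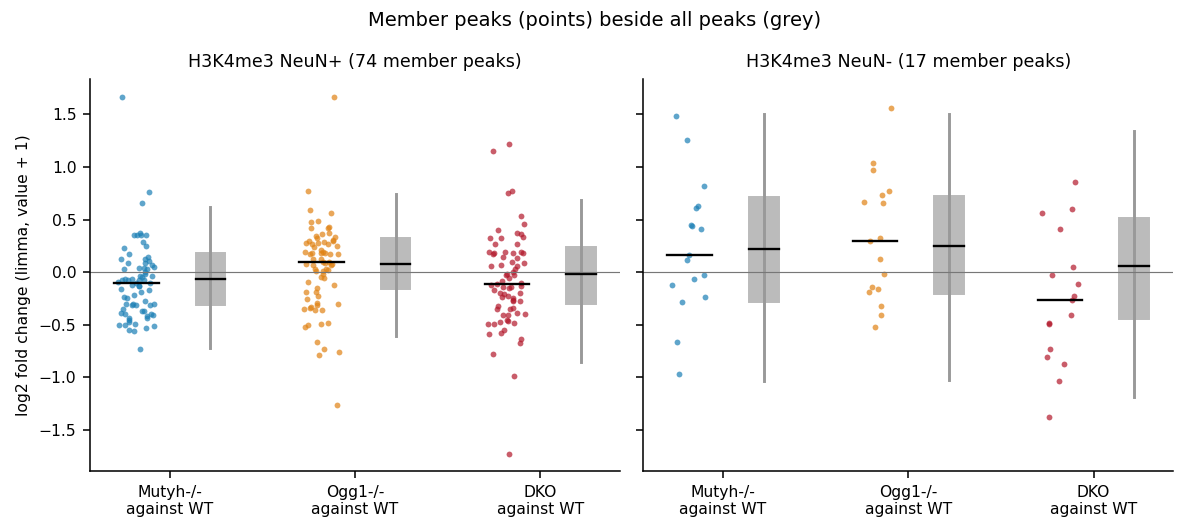
Log2 fold change against WT (vertical axis, limma, value + 1) of each member peak (points, with a bar at their median) beside all peaks of the table (grey box, quartiles; grey line, 5th to 95th percentile; bar, median). The 74 NeuN+ members centre on -0.10, 0.10 and -0.11 and lie around the same values as all peaks.

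By complex, the medians in NeuN+ nuclei for Mutyh-/-, Ogg1-/- and DKO were -0.20, 0.07 and -0.01 over 36 complex I peaks, -0.08, 0.42 and 0.18 over 3 of complex II, -0.02, 0.24 and -0.10 over 7 of complex III, -0.03, 0.02 and -0.27 over 11 of complex IV and -0.17, 0.17 and -0.17 over 17 of complex V. In NeuN- nuclei the 4 peaks of complex III had 0.52, 0.66 and 0.30 and the 8 of complex V 0.04, 0.14 and -0.36. The 3 of complex I had 0.16, 0.12 and -0.48 and the 2 of complex IV 0.27, 0.28 and -0.64, with all 5 below WT in DKO. Of all NeuN- peaks, 52.8% were above WT in DKO. No complex had more than 1 DER in any contrast.

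The intervals show what the limma fit without TMM factors could have missed. In NeuN+ nuclei the half-width of a member's 95% interval had a median of 0.92 on the log2 scale, and for 18, 18 and 13 of 74 members the whole interval lay within a 2-fold change of WT. Within a 4-fold change it lay for 72, 71 and 70 of 74, where 90.4%, 90.2% and 88.3% of all peaks did. In NeuN- nuclei the median half-width was 1.72, with 0 of 17 members within 2-fold and 4, 5 and 6 within 4-fold. Changes of less than 2-fold were therefore not resolved by that fit for most NeuN+ members, nor of less than 4-fold for most NeuN- members. With TMM factors, Atp5mpl passed for Mutyh-/- in NeuN+ nuclei at -0.66 (limma unadjusted p = 0.025).

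The DKO effect was compared with the sum of the single knockouts. A non-additive contrast, the DKO difference from WT less those of Mutyh-/- and Ogg1-/-, had an unadjusted limma p under 0.05 for 0 of 74 NeuN+ members (0.839% of all peaks) and 0 of 17 NeuN- members (3.03%). In NeuN+ nuclei TMM factors gave 2 such members (4.21% of all peaks), edgeR 3 (3.9%) and DESeq2 0 (2.91%). The smallest p belonged to Ndufs3, an iron-sulphur arm subunit of complex I, in NeuN+ nuclei (1.66, SE 0.84, limma unadjusted p = 0.058) and Atp5b in NeuN- nuclei (-2.18, SE 1.17, limma unadjusted p = 0.067). Ndufs3 had 19.3, 17.6 and 19.4 in WT, 19.6, 17.5 and 5.31 in Mutyh-/-, 20.2, 3.08 and 18.5 in Ogg1-/- and 22.6, 31.4 and 20.5 in DKO, so that contrast turned on 1 low library in each single knockout.

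A knockout effect that differed between the fractions was not found among the 17 genes with a peak in both. In a fit of 24 libraries, 0 of 17 had an unadjusted limma p under 0.05 for Mutyh-/-, Ogg1-/- or DKO, where 2.3%, 1.8% and 1.8% of 3000 shared peaks did. The study collected both fractions from a sort, so same-numbered libraries of the fractions may share a pool, which that fit did not model. With a replicate block that pairs them, 0 of 17 passed in each contrast.

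The share of reads gives a view that no library factor moves. Members are 0.629% of NeuN+ promoter peaks and took 0.680% ± 0.040 (SD, n = 3) of promoter-peak reads in WT, 0.665% ± 0.002 in Mutyh-/-, 0.667% ± 0.005 in Ogg1-/- and 0.666% ± 0.051 in DKO. The genotypes overlapped. In NeuN- nuclei they are 0.556% of promoter peaks and took 0.565% ± 0.026 in WT, 0.545% ± 0.071 in Mutyh-/-, 0.583% ± 0.057 in Ogg1-/- and 0.483% ± 0.021 in DKO. There the DKO libraries (0.488%, 0.460% and 0.501%) were all below the WT libraries (0.567%, 0.590% and 0.538%), on 97 to 256 and 94 to 212 reads. Mutyh-/- replicate 1, at 0.464%, was within the DKO range. As a share of reads in all peaks the DKO and WT libraries overlapped, at 0.332%, 0.107% and 0.130% in DKO and 0.352%, 0.204% and 0.177% in WT. The top peak of each library took 25.4%, 58.4% and 57.0% of those reads in DKO and 29.8%, 50.3% and 51.6% in WT. A share of all reads moves with that peak too, so this overlap says little about the members.

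**Figure D5:**
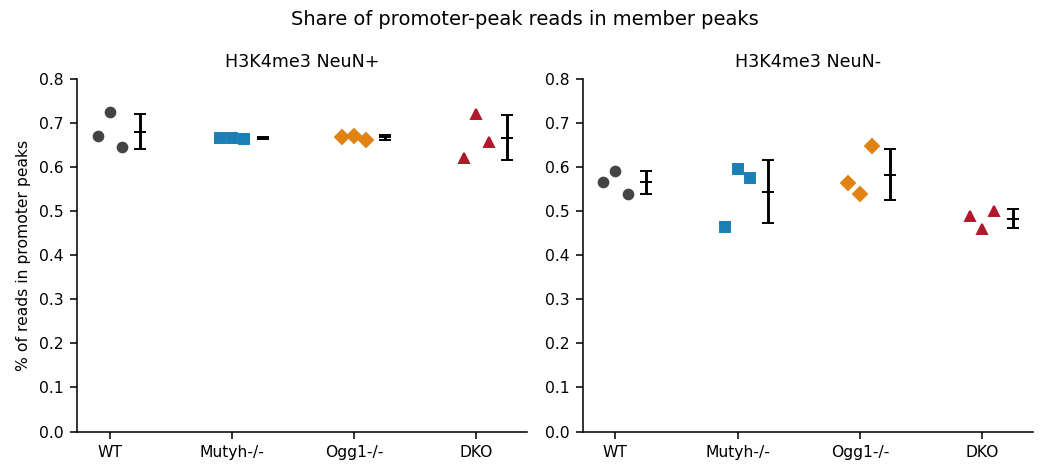
Percent of the reads in promoter peaks that fell in member peaks (vertical axis from 0), 1 point per library, with mean and SD beside each genotype (n = 3). NeuN+ genotypes overlap around 0.67%, and in NeuN- nuclei the 3 DKO libraries lie below the 3 WT libraries, as does 1 Mutyh-/- library.

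Few pathway genes outside these symbols were DERs. In NeuN+ nuclei 33 of 38 assembly and carrier genes, 12 of 13 citrate cycle genes and 14 of 19 regulators of mitochondrial biogenesis had a promoter peak, and 0 were DERs in the 3 contrasts, as were 0 of 41 cytosolic ribosomal protein genes. Of 59 mitochondrial ribosomal protein genes 1 was, Mrpl23 for Ogg1-/- (0.95, SE 0.46, limma unadjusted p = 0.047), with 15.4, 9.76 and 38.8 in WT and 54.7, 25.6 and 33.1 in Ogg1-/-. In NeuN- nuclei the lists had 7, 7, 6, 10 and 12 peaks, of which 2, 3 and 1 of 42 were DERs for Mutyh-/-, Ogg1-/- and DKO, beside 2.94%, 3.36% and 2.29% of all peaks. There Cox16, an assembly factor of complex IV, was a DER for Mutyh-/- (2.91, SE 1.05) and Ogg1-/- (2.16), Suclg2 of the citrate cycle for Ogg1-/- (1.74) and Rpl6 for all 3 knockouts (1.92, 1.84 and 1.87), all higher than WT. Each of the 3 had at least 1 WT library at 0, as Cox16 with 0, 0 and 9.45, and the contrasts share those WT libraries. The adjusted p of each was above 0.05 in limma.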

How the data were processed

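Per the labels and methods, the authors aligned ChIP-seq reads to GRCm38 with Bowtie2 2.3.5.1, called regions with epic2 at a false discovery rate of 0.05, kept those found in 2 or more replicates, counted reads with DiffBind 3.10.1, tested with edgeR 3.42.4 and annotated peaks with ChIPseeker 1.36. The deposited signal is a read number scaled with 1 factor per library, so levels were not compared between tables. All values were whole multiples of that factor (tolerance 0.01), which returned the reads. Antibody and fraction of a column were taken from its table's name, and 24 input libraries were not used here.

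Differences were fitted with limma 3.58.1 (trend, R 4.3.3) on log2(signal + 1) over all peaks and 12 libraries of a table, with genotype as the term, two-sided p and Benjamini-Hochberg adjustment over the table. Prior degrees of freedom were 24.9 and 58.3 beside 8 residual. Fraction differences used 24 libraries over 3000 H3K4me3 peaks that overlap one to one by at least 1 bp. Alternatives were TMM factors, a pseudocount of 5, dropping the lowest 25% of peaks, robust empirical Bayes, a replicate block, edgeR 4.0.16 and DESeq2 1.42.0 on recovered reads, and leaving out each library. The limma and edgeR fits were also run on simulated reads, in which libraries differed in depth but had no shift of their median level. Medians of the real libraries did differ, so those runs do not vouch for the calls here. Replicates within a fraction are separate pools. Each limma p sets a difference against the spread of those pools, drawn towards that of all peaks of the table.

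Genes named were a core list per complex (1 member is not reported here by name), tissue-type isoform pairs, up to 5 DERs per contrast or else the smallest p, the 3 highest and 3 lowest WT means, and genes with 2 peaks. Others, such as those whose libraries separated, were chosen after their values were seen. The members and lists were chosen with earlier results of these data known. Starts came from GENCODE M21, promoter sequences from RefSeq (GRCm38.p6).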

Additional observations from a re-analysis of the deposited data

How the results depend on the processing

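Ndufab1 kept its direction under every setting that fitted it. Dropping a library could not change that direction, because all its DKO values exceeded all its WT values. Its limma p was above 0.05 in 5 of the 6 fits without 1 WT or DKO library. The member medians, which carry no test, changed sign when single libraries were left out and, for NeuN- Mutyh-/-, with TMM, edgeR and DESeq2. In NeuN+ nuclei, members called for Mutyh-/-, Ogg1-/- and DKO (0, 0 and 1) numbered 2, 3 and 3 with TMM factors, 2, 2 and 4 with edgeR and 2, 2 and 2 with DESeq2. Without the lowest 25% of peaks the DKO count was 0, since 65 of 74 members were fitted (13 of 17 in NeuN- nuclei) and Ndufab1 was not among them. Atp5mpl passed for Mutyh-/- with TMM, edgeR and DESeq2 (-0.66, -0.65 and -0.65). Members with a non-additive unadjusted p under 0.05 in NeuN+ nuclei numbered 2 with TMM, 1 with robust empirical Bayes and 3 with edgeR. As a share of reads in all peaks, members took 0.639%, 0.625% and 0.638% in NeuN+ WT, Mutyh-/- and Ogg1-/-, and 0.244%, 0.225%, 0.206% and 0.190% in NeuN- WT, Mutyh-/-, Ogg1-/- and DKO. The NeuN- shares also move with the top peak of each library, which took 25.4% to 59.3% of its reads.

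All NeuN+ peaks called numbered 115, 122 and 185, against 473, 482 and 699 with TMM, 506, 501 and 490 with edgeR, 378, 378 and 355 with DESeq2, and 68, 72 and 130 without the lowest peaks. Those higher than WT made up 37.4%, 77.9% and 33.0%, against 50.7%, 49.0% and 42.3% with TMM, 50.2%, 50.9% and 46.5% with edgeR and 51.9%, 50.0% and 47.9% with DESeq2. In NeuN- nuclei 96, 110 and 75 peaks were called (80.2%, 86.4% and 65.3% higher), against 157, 168 and 177 with TMM (56.1%, 53.6% and 52.0%), 94, 111 and 111 with edgeR (56.4%, 51.4% and 48.6%), 115, 147 and 142 with DESeq2 (52.2%, 46.3% and 47.2%) and 69, 68 and 43 without the lowest peaks. Non-additive NeuN+ peaks numbered 106, against 532 with TMM, 493 with edgeR and 367 with DESeq2. Of the 99 in NeuN- nuclei 7.07% were positive, against 41.2%, 46.4% and 53.5% with these tools.

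Leaving out 1 of the 6 libraries compared, NeuN+ member calls ranged from 0 to 1 for Mutyh-/- (Atp5mpl, without Mutyh-/- replicate 3, where 2.21% of all peaks were called), from 0 to 2 for Ogg1-/- (Ndufb2 with Ndufb6 without WT replicate 2, 0.934% of all peaks, or with Uqcr10 without Ogg1-/- replicate 3, 2.65%) and from 0 to 3 for DKO. The DKO calls were higher than WT without WT replicate 1 (Cox7c and Ndufa4) or DKO replicate 1 (Atp5g1 and Cox7c), lower without DKO replicate 2 (Ndufaf1 and Sdhb among them) or DKO replicate 3 (Ndufs8 and Ndufaf1), and 0 without WT replicate 2. Over all peaks, without DKO replicates 1, 2 and 3, calls were 1.31%, 4.04% and 3.75% of peaks, with 90.4%, 7.25% and 6.12% of them higher than WT. NeuN- calls ranged from 0 to 1 in each contrast (Uqcrc2 without WT replicate 2, where 3.85% and 4.68% of all peaks were called, Ndufa10 without DKO replicate 1, 7.06%). Member medians then ranged from -0.30 to 0.04, -0.18 to 0.31 and -0.34 to 0.21 in NeuN+ nuclei, and from -0.064 to 0.50, -0.052 to 0.87 and -0.88 to 0.22 in NeuN- nuclei. Non-additive members ranged from 0 to 2 in both fractions. Members that differed between fractions ranged from 0 to 1, with 1 for Mutyh-/- without NeuN- WT replicate 1 or 2 and 1 for Ogg1-/- without NeuN- WT replicate 2.

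With a replicate block, members called were 0, 0 and 1 in NeuN+ and 0, 0 and 0 in NeuN- nuclei, so it changed no member's call, while all peaks called numbered 143, 165 and 237, and 187, 180 and 146, and non-additive NeuN- peaks 176. Correlations of same-numbered WT and knockout libraries ran from -0.10 to 0.07 in NeuN+ and from 0.0076 to 0.12 in NeuN- nuclei (9 each). The numbers were therefore not read as pairs between genotypes. Apart from fewer peaks or libraries in a fit, the cause of these differences was not tested. Depth limits the NeuN- members most, at a median of 10 reads per library.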
